A study of Mus musculus with 5 samples.

Results

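The complement and coagulation cascades are 2 chains of plasma proteases and cofactors that are made mostly by the liver. Their transcripts were followed here in livers of Fra-1hep mice, which overexpress the AP-1 subunit Fra-1 in hepatocytes. The genes were the 45 of a fixed list, found through the accession of each probe with its version dropped. All 45 were on the array, with 58 of its 55681 probes, and all passed the filter on dim probes, among 21508 features tested. They comprise 23 complement genes and 22 genes of coagulation and fibrinolysis. By textbook knowledge of the main cell source, 32 are made by hepatocytes, 8 by macrophages and other myeloid cells and 3 by endothelium. The last 2 are Cfd, best known from adipocytes, and F3, expressed by many cell types.

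Liver RNA was measured on 5 Agilent 2-colour arrays. Individual Fra-1hep mice (C57BL/6J) were labelled with Cy5, 1 on each of 4 arrays, and the Cy3 channel held pooled RNA of 5 wild-type C57BL/6J controls. The last array had the opposite orientation: its Cy3 channel held pooled Fra-1hep RNA, called the swapped pool below, and its Cy5 channel the control pool. Which mice entered that pool, and which promoter drives the transgene, was not stated in the labels. All mice were 26 to 28 weeks old and had been fed a high-fat diet, with 45% of energy from fat, from 4 weeks of age, controls included. The question here is how the 2 cascades differ between these livers. Fosl1, the gene of Fra-1, had 1 probe, which rose well above background on 0 of 5 arrays for Fra-1hep RNA and on 1 for control RNA. It therefore did not check the labels. Both channels detected all 10 hepatocyte markers on each of the 5 arrays.

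In complement, C1q bound to antibodies, or mannose-binding lectin bound to sugars, activates serine proteases that cleave C4 and C2, and the alternative pathway runs through factors B and D. All routes cleave C3 and can end in a membrane pore of C5b, C6, C7, C8 and C9. In coagulation, tissue factor with factor VII, or the contact factors, leads to thrombin, which turns fibrinogen into fibrin, and plasmin dissolves the clot. Several hepatic members, fibrinogen and C3 among them, are known as acute phase proteins.

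Values below are log2 ratios of Fra-1hep over control, so 1 is a doubling. The genotype coefficient is given with its moderated standard error. It averages the mean of the 4 mice with the swapped pool, which thus weighs as much as the 4 mice together. It comes from a limma fit with a dye intercept per gene, and Benjamini-Hochberg adjustment ran over all features with a threshold of 0.05. At that threshold 11 of the 45 genes (24.4%) were higher and 13 (28.9%) were lower, and 21 did not pass. Over all features, 11.2% were called higher and 15.4% lower, 26.6% in either direction. Among 13538 named genes tested, 1627 were called higher and 2504 lower. These shares are not matched for brightness: 9311 of the 21508 features had a mean log2 intensity under 8, against 4 of the 45 genes. Of the 45 genes, 23 had 1 sign on all 5 arrays (51.1%, against 35.7% of all features). Changes of at least 2-fold past the threshold were found for 5 genes, Fgb, Fgg, C8b, C6 and Cfd, and for 1.86% of all features. The control pool is 1 control sample, so every p-value leaves out the spread among control mice. The swapped pool is 1 array, which the dye intercept fits exactly, so no spread was measured for it. The standard errors give it the spread of the 4 mice, and a gap between mice and pool does not enlarge them. As an alternative, standard errors were enlarged for 5 pooled controls, given the same spread as the 4 mice, which is meant below by the pool's spread. In whole liver, fewer cells of a type and less RNA per cell cannot be told apart.

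The 3 fibrinogen chains rose together. Their promoters are shown because these genes lie side by side and moved the same way. In the RefSeq gene order Fgg, Fga and Fgb have no protein-coding gene between them. The sequences are from RefSeq, build GRCm38.p6, 250 bases before to 50 after each start: Fgg at chr3:83007474-83007773 on the plus strand, Fga at chr3:83025903-83026202 on the plus strand and Fgb at chr3:83049814-83050113 on the minus strand. Capitals mark matches on either strand to 4 motifs: TGANTCA (AP-1), CTGGGAA (the IL-6 response element of type II), GTTAAT (part of the HNF-1 site) and TTGCNNAA (C/EBP), none of which overlap in these promoters.
Fgg: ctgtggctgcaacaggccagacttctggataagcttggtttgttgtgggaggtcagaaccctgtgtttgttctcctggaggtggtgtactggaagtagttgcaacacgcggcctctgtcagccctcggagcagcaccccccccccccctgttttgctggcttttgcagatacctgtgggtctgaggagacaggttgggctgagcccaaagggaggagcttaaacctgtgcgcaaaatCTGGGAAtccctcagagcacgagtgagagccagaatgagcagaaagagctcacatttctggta
Fga: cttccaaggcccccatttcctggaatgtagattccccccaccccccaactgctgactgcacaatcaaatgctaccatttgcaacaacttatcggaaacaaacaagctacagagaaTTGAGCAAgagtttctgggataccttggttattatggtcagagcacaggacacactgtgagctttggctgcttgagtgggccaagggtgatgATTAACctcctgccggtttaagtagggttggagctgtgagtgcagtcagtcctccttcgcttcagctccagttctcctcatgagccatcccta
Fgb: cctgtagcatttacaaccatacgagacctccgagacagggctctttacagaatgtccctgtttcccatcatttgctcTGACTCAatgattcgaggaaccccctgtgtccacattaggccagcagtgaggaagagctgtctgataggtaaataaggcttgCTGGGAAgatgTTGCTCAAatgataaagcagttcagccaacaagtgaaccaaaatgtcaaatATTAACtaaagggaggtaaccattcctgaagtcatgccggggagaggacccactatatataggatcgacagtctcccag

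The Fgb promoter held all 4 motifs, with TGACTCA starting 173 bases before the start site and CTGGGAA 91 bases before it. In Fgg, CTGGGAA began 13 bases before the start, and Fga held a C/EBP and an HNF-1 match. Of 32851 promoters of this length, 7.81% held TGANTCA, 11.1% CTGGGAA, 7.10% GTTAAT and 10.8% TTGCNNAA. Promoters were found for 33 of the 45 genes (34 sequences), of which 6 held TGANTCA, 6 CTGGGAA, 9 GTTAAT and 9 TTGCNNAA. A match is a description of letters, not a bound site.

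Fgb, the beta chain, had ratios of 2.69, 2.66, 2.69 and 2.51 in mice 1 to 4, and 0.63 was the value of the swapped pool. The 4 mice lay close together and far above the swapped pool, and all 5 values were above 0. The coefficient was 1.63 ± 0.06 (3.11-fold, adjusted p = 1.9e-05). Fgg, the gamma chain, had 1.42, 1.77, 1.68 and 1.48 in the mice and 0.84 in the pool, a coefficient of 1.21 ± 0.08 (2.32-fold, adjusted p = 0.000147). Fga, the alpha chain, had 0.92, 1.12, 1.30 and 1.12, and 0.83 in the pool, a coefficient of 0.97 ± 0.08 (1.96-fold, adjusted p = 0.000327); its dimmer probe gave 0.74. The dye intercepts of the 3 genes, that is the part of the Cy5 over Cy3 ratio that does not change sign with the dyes, were 1.00 for Fgb, 0.38 for Fgg and 0.14 for Fga. Only that of Fgb passed the threshold among these 3 (adjusted p for the dye 0.000802, 0.0507 and 0.333), and without the swapped array the Fgb value was 2.64. All 3 rises held under every one of the 15 alternative settings tried. These settings were not separate checks. The deposited ratios nearly repeated the processed signals, and changed filters or the pool's spread left most coefficients unchanged.

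**Figure D1:**
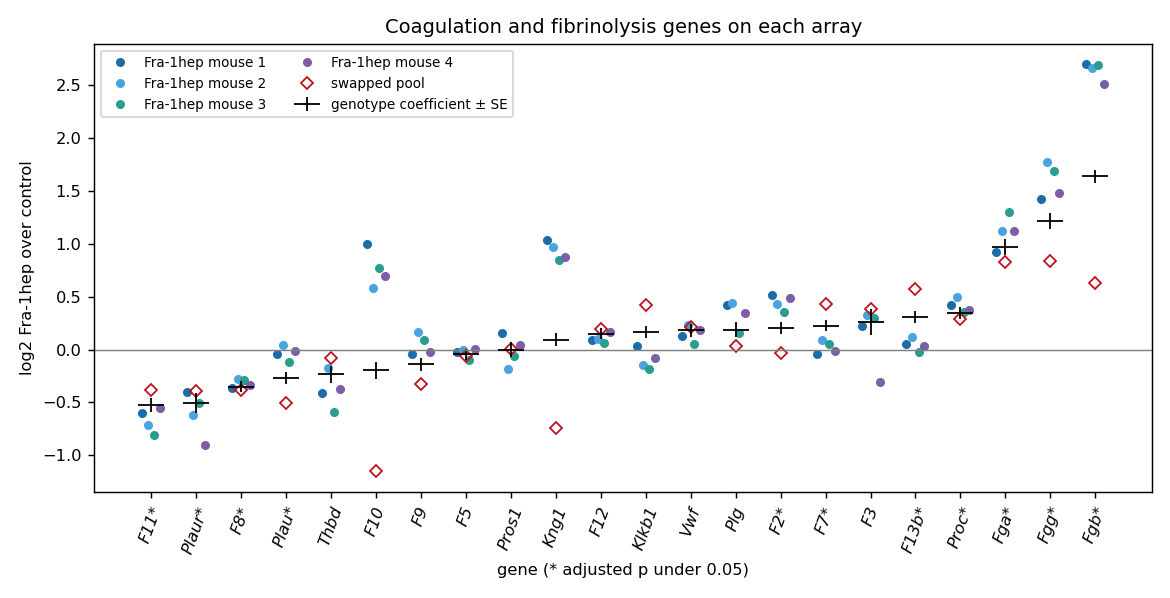
Log2 ratio of Fra-1hep over control (vertical axis) for the 22 coagulation and fibrinolysis genes, ordered by genotype coefficient; dots are the 4 mice, red diamonds the swapped pool, black bars the coefficient with its standard error, and stars mark an adjusted p under 0.05. Fgb, Fgg and Fga are high in all 4 mice, and F10 and Kng1 are above 0 in all 4 mice but at -1.15 and -0.74 in the swapped pool.

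Terminal pathway genes went in different directions. C6 and C8b rose by more than 2-fold, C8a fell, and C8g and C9 did not pass. C8b encodes the beta chain of C8 and C8a its alpha chain, which are needed for the same protein. C8b and C8a are neighbours with no protein-coding gene between them, and their promoters are shown because the pair moved in opposite directions. They lie at chr4:104766067-104766366 on the plus strand (C8b) and chr4:104876349-104876648 on the minus strand (C8a), from the same source and marked the same way; GTTAAT was the 1 motif found, once in each.
C8b: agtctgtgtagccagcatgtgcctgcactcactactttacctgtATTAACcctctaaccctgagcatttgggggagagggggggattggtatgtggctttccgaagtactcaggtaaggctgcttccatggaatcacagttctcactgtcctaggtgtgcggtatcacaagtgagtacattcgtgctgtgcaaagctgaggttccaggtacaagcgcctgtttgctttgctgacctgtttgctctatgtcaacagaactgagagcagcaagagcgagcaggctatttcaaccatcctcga
C8a: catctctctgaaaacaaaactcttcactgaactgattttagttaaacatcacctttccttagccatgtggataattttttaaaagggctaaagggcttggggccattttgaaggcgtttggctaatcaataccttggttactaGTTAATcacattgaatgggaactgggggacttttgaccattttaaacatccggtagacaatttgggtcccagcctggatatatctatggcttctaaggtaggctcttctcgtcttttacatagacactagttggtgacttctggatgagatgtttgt

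C8b had ratios of 1.68, 1.16, 0.98 and 1.52 in mice 1 to 4, and 1.38 was the value of the swapped pool, with all 5 arrays well above 0. Its coefficient was 1.36 ± 0.13 (2.56-fold, adjusted p = 0.000715). C8a had -0.40, -0.75, -1.21 and -0.45, and -0.49 in the pool, so it was below 0 on every array and lowest in mouse 3. Its coefficient was -0.59 ± 0.15 (adjusted p = 0.0249), and its dimmer probe gave -0.52. The C8a call ended once a spread for the pool was added (adjusted p = 0.0816), with processed signals (0.0805) and with a background offset of 0 (0.0508). C6, which joins C5b in the pore, had 1.38, 1.07, 0.74 and 1.54, and 1.36 in the pool. Like C8b it was lowest in mouse 3, and its coefficient was 1.27 ± 0.14 (2.42-fold, adjusted p = 0.00128). C8g, the gamma chain (-0.19), and C9, the pore-forming component (-0.22), did not pass, and the dimmer probe of C8g gave 0.04.

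Most macrophage-made genes were lower. Among 8, 7 passed as lower, 1 did not pass and 0 rose, with a median of -0.54. Over all features 15.4% were called lower and the median was -0.00. The 3 chains of C1q, which starts the classical pathway, are adjacent genes. C1qa had ratios of -0.95, -0.34, -0.64 and -0.92 in mice 1 to 4, and -0.51 was the value of the swapped pool. C1qb had -1.16, -0.49, -0.91 and -1.22, and -0.45 in the pool, and C1qc had -0.76, -0.10, -0.52 and -0.71, and -0.62 in the pool. All values were below 0, and mouse 2 was the closest to 0 of the mice for each chain. The coefficients were -0.61 ± 0.12 for C1qa, -0.70 ± 0.13 for C1qb and -0.57 ± 0.12 for C1qc, with adjusted p of 0.0108, 0.0104 and 0.0155. The C1qc call ended once a spread for the pool was added (adjusted p = 0.0558).

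Cfp encodes properdin, which stabilises the alternative pathway convertase and is made by myeloid cells. It had -0.94, -0.05, -0.38 and -0.81, and -0.60 in the pool, a coefficient of -0.57 ± 0.16 (adjusted p = 0.0357). Mouse 2 was again near 0, and the call ended without mouse 3 (adjusted p = 0.0552), without mouse 4 (0.0707) or with the pool's spread (0.108). Plaur, the urokinase receptor, had -0.40, -0.62, -0.51 and -0.91, and -0.39 in the pool, a coefficient of -0.50 ± 0.09 (adjusted p = 0.00998). All 5 values were below 0 and mouse 4 was lowest. C5ar1, a C5a receptor, was well above background in the control channel of 5 arrays and in the Fra-1hep channel of none. Its ratios were -0.33, -0.31, -0.22 and -0.16, and -0.20 in the pool. The coefficient was -0.23 ± 0.06 (adjusted p = 0.0286), and the call ended without mouse 3 (0.0583) or with the pool's spread (0.091). With C5ar1 undetected in Fra-1hep RNA, these ratios set control RNA against signal near background.

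C3ar1, the C3a receptor, had -0.12, 0.16, -0.22 and -0.20, and -0.37 in the pool and did not pass (-0.23 ± 0.08, adjusted p = 0.0779). Without mouse 2 it passed at -0.28 (adjusted p = 0.0189). Plau, urokinase, lay near background, with the Fra-1hep channel well above it on 1 array and the control channel on 3. Its mice were at -0.04, 0.04, -0.12 and -0.02 and the swapped pool at -0.50, so its fall (-0.27 ± 0.06, adjusted p = 0.0146) rested on that pool. Without the swapped array its value was -0.03 (adjusted p = 0.625), and once a spread for the pool was added the adjusted p was 0.0533.

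Markers of macrophages moved the same way as these genes. The shares over all features, to set beside the marker counts here, were 11.2% higher and 15.4% lower. Of 14 macrophage markers tested, 11 fell and 0 rose, with a median of -0.69. Their medians in mice 1 to 4 and the swapped pool were -0.90, -0.37, -0.68, -1.02 and -0.71. Cd74 (-0.99), the protease gene Ctss (-1.14) and the chemokine receptor gene Ccr2 (-0.55) had the smallest p. The medians of the 8 macrophage-made genes were -0.58, -0.21, -0.45, -0.76 and -0.47, so mouse 2 was closest to 0 and mouse 4 lowest in both lists. Of 6 Kupffer cell markers, 1 fell, Cd5l, with -1.54, -0.40, -0.96 and -1.62 in the mice, with the swapped pool at -0.87, and 5 did not pass, with Marco at -0.78, Folr2 at -0.38, Vsig4 at 0.05, Clec4f at 0.07 and Timd4 at 0.13. The median of the 6 was -0.16. Of 10 neutrophil markers, 7 rose and 0 fell, with a median of 2.12; neutrophils also express Cfp, C5ar1 and Plaur. The part of cell numbers in these values was not tested.

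Cfd, which encodes factor D (adipsin), the protease that cleaves factor B, had the lowest coefficient of the 45 genes. Its ratios were -4.00, -3.78, -2.99 and -3.77 in mice 1 to 4, and -3.28 was the value of the swapped pool, far below 0 on every array. Fra-1hep RNA gave no signal well above background, while control RNA did on all 5 arrays. The coefficient was -3.46 ± 0.17 (adjusted p = 5.24e-05). It was -4.81 with a background offset of 0 and -6.06 with processed signals. The direction held, but the size depended on the processing, which the standard error leaves out. Raising the Fra-1hep signal to the dimmest signal flagged above background on each array gave a 10.9-fold fall. C5ar1 went undetected while brighter than that level, so 10.9-fold is not a strict minimum. Of 6 adipocyte markers, Adipoq, Lep, Plin1 and Retn did not pass the filter on dim probes. Fabp4 fell (-1.04 ± 0.08) and Pnpla2, also expressed in liver, did not pass (0.19). The part of adipocyte RNA in the Cfd value was not tested.

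**Figure D2:**
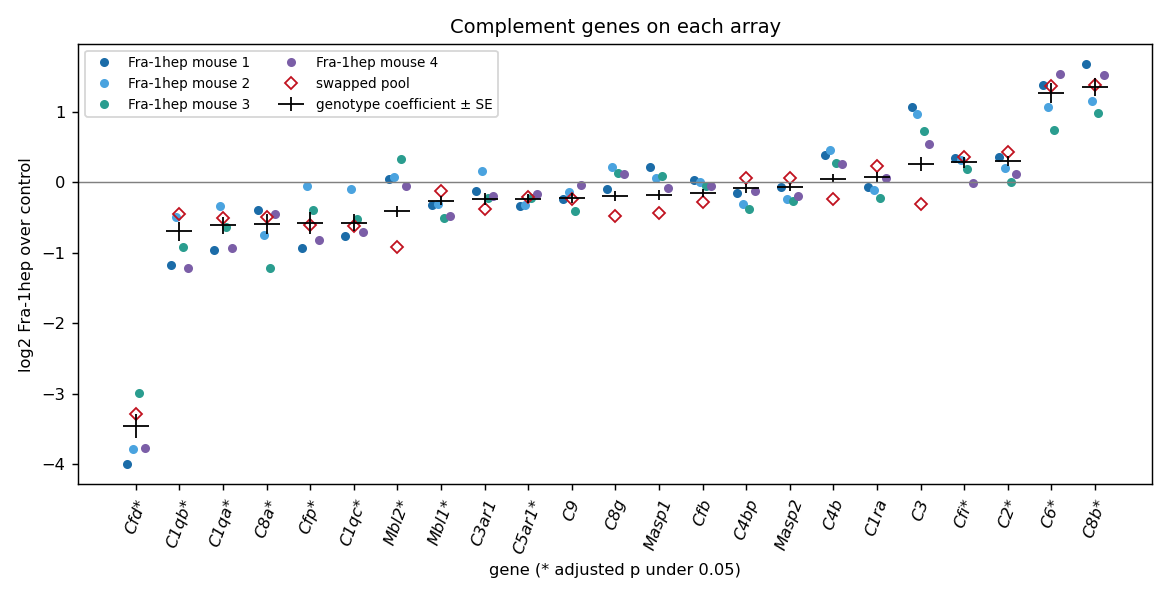
Log2 ratio of Fra-1hep over control (vertical axis) for the 23 complement genes, ordered by genotype coefficient, with symbols as in the plot of coagulation genes. Cfd lies between -4.00 and -2.99 on every array, C6 and C8b lie above 0 on every array, and the swapped pool lies below all 4 mice for Mbl2, C4b and C3.

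Of the central and early complement genes that hepatocytes make, C2 and Cfi passed, and C3, C4b, Cfb, C1ra and C4bp did not. C3, the component on which all routes converge, was at 1.07, 0.97, 0.73 and 0.54 in the mice, with the swapped pool at -0.31. The mice and the pool were on opposite sides of 0, and the coefficient of 0.26 ± 0.10 did not pass (adjusted p = 0.102). In a limma fit of all kept probes singly, its dimmer probe passed at 0.38 (adjusted p = 0.0217). The mean of both probes passed at 0.32 (adjusted p = 0.0443). Without the swapped array C3 passed at 0.83 (adjusted p = 0.000847). C4b, a form of C4, behaved likewise, with 0.39, 0.47, 0.28 and 0.26 in the mice, -0.24 in the pool and a coefficient of 0.05 ± 0.06 (adjusted p = 0.555; 0.35 and adjusted p = 0.00347 without the swapped array). C4b closely resembles C4a, and a probe may read both.

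C2, the protease that C4 pairs with, had 0.35, 0.21, 0.01 and 0.13, and 0.44 in the pool and rose (0.30 ± 0.07, adjusted p = 0.0236). All 5 values were above 0, but C2 lost its call when the swapped array was left out (0.17, adjusted p = 0.0807), with processed signals (0.0544) and with the pool's spread (0.0782). Cfi, factor I, which inactivates C3b and C4b, had 0.34, 0.32, 0.19 and -0.01, and 0.37 in the pool and rose (0.29 ± 0.08, adjusted p = 0.0349). Its call ended without mouse 1 (adjusted p = 0.0517), mouse 2 (0.0535), mouse 3 (0.0686) or the swapped array (0.0541), and with the pool's spread (0.106). Cfb (-0.15), next to C2 in the genome, C1ra (0.08) and C4bp (-0.09), a cofactor of factor I, did not pass; C4bp passed without the swapped array (-0.24, adjusted p = 0.0208).

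In the lectin pathway, both mannose-binding lectin genes were called lower. Mbl1 had a coefficient of -0.26 ± 0.06 (adjusted p = 0.0232), which ended without mouse 3 (adjusted p = 0.052) or mouse 4 (0.0533) and with the pool's spread (0.077). Mbl2 was at 0.05, 0.08, 0.34 and -0.06 in the mice, with the swapped pool at -0.92. Its coefficient of -0.41 ± 0.08 (adjusted p = 0.0113) therefore came from the swapped pool, and without that array it was 0.10 (adjusted p = 0.297). The protease genes Masp1 (-0.18) and Masp2 (-0.06) did not pass. Masp2 passed without the swapped array (-0.19, adjusted p = 0.0323), and Masp1 with processed signals (-0.27, adjusted p = 0.0424). With all arrays the dimmer probes of Masp2 gave 0.16 and -0.01, and the mean of its probes was 0.03.

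Of 6 genes whose products depend on vitamin K, 3 rose and 3 did not pass. Proc, protein C, an anticoagulant protease, had 0.42, 0.50, 0.35 and 0.37 in the mice, with the swapped pool at 0.29. These values were close together, and the rise of 0.35 ± 0.06 (1.27-fold, adjusted p = 0.00574) held under all 15 alternative settings. F2, prothrombin, rose by 0.21 ± 0.06 (adjusted p = 0.0367), with the 4 mice averaging 0.45 and the swapped pool at -0.03. The F2 call ended without any 1 mouse (adjusted p from 0.0519 to 0.0781) and with the pool's spread (0.11). F7 was called higher (0.23 ± 0.06, adjusted p = 0.0248) with a mean of 0.02 in the mice, with the swapped pool at 0.43. Its value was 0.02 (adjusted p = 0.793) without that array, and the call also ended without mouse 3 (0.0603) and with the pool's spread (0.0812).

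F10, the gene next to F7, was at 0.99, 0.58, 0.77 and 0.70 in the mice, with the swapped pool at -1.15. The mice and the pool were thus far apart on opposite sides of 0, and the coefficient of -0.19 ± 0.08 did not pass (adjusted p = 0.121). Without the swapped array it was 0.76 (adjusted p = 0.000504), and without mouse 1 it was -0.23 (adjusted p = 0.0406). The dimmer F10 probe had a coefficient of -0.00 ± 0.05 and a dye intercept of 0.13, against 0.96 at the bright probe. F9 (-0.14) and Pros1, protein S (0.00), did not pass.

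Of 4 contact factor genes 1 fell and 3 did not pass. F11 fell, with -0.60, -0.71, -0.81 and -0.55 in the mice, with the swapped pool at -0.38 (-0.52 ± 0.07, adjusted p = 0.00227). All 5 values were below 0, and the call held under all 15 alternatives. Klkb1, plasma prekallikrein, is the neighbour of F11 and a related protease, and it did not pass (0.17, adjusted p = 0.0876). F12 (0.15) did not pass. Kng1, kininogen, was at 1.03, 0.97, 0.85 and 0.87 in the mice, with the swapped pool at -0.74, with a coefficient of 0.09 ± 0.06 (adjusted p = 0.282). Its mice lay close together and apart from the pool. Without the swapped array it was 0.93 (adjusted p = 5.22e-05). In the limma fit of single probes, its dimmer probe passed at 0.46 ± 0.06 (adjusted p = 0.00262), with a dye intercept of -0.22. The mean of both probes passed at 0.28 (adjusted p = 0.00878). Kng1 resembles Kng2, and a probe may read both. F13b, the carrier subunit of factor XIII, was called higher (0.31 ± 0.05, adjusted p = 0.00807). It had 0.05, 0.12, -0.02 and 0.04 in the mice and 0.57 in the pool, and 0.05 (adjusted p = 0.501) without the swapped array. F5 was at -0.04. Plg, plasminogen (0.19, adjusted p = 0.0879), passed without the swapped array (0.34, adjusted p = 0.00621).

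Of the endothelial genes, F8, factor VIII, fell. Its ratios were -0.36, -0.28, -0.29 and -0.33, and -0.38 in the pool, all within a narrow range below 0 (-0.35 ± 0.05, 1.27-fold, adjusted p = 0.00449), and its dimmer probe gave -0.33. Thbd, thrombomodulin, had -0.41, -0.17, -0.59 and -0.37, and -0.08 in the pool and did not pass (-0.23 ± 0.08, adjusted p = 0.0734). It passed without mouse 2 (-0.27, adjusted p = 0.0328) and without the swapped array (-0.39, adjusted p = 0.00686). Vwf, the carrier of factor VIII, had 0.13, 0.24, 0.05 and 0.19, and 0.21 in the pool, all above 0, and did not pass (0.18 ± 0.06, adjusted p = 0.0607). Of 12 endothelial markers, 7 fell and 0 rose (15.4% and 11.2% of all features), with a median of -0.43. Lyve1 had the lowest coefficient (-1.52). Of 7 platelet markers tested, 6 rose and 0 fell, with a median of 0.47 and Ppbp highest (1.29); platelets and their precursors also carry Vwf RNA. The part of these cells in the F8, Thbd and Vwf values was not tested. F3, tissue factor, had 0.23, 0.33, 0.30 and -0.30, and 0.38 in the pool. Mouse 4 was the 1 array below 0, and F3 did not pass (0.26 ± 0.12, adjusted p = 0.157), but did without mouse 4 (0.33, adjusted p = 0.018). The dimmer F3 probe gave -0.02 with all arrays.

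Set side by side, 4 of 23 complement genes rose and 9 fell, with a median coefficient of -0.19, while 7 of 22 coagulation genes rose and 4 fell, with a median of 0.16. The shares over all features were 11.2% higher and 15.4% lower, and some of the shares in these lists lay close to them. The calls of F7, F13b, Mbl2 and Plau came mostly from the swapped pool, with means of the mice of 0.02, 0.05, 0.10 and -0.03. The complement medians were -0.09, -0.05, -0.22, -0.07 and -0.28 in mice 1 to 4 and the swapped pool, and the coagulation medians 0.11, 0.14, 0.06, 0.04 and 0.02. The coagulation median was the higher on each array, by small amounts, and the difference was not tested. Without the swapped array the medians were -0.095 for complement and 0.076 for coagulation, and with the pool's spread 2 complement genes were higher and 4 lower. Both lists hold 16 hepatocyte-made genes. The remaining complement genes are 6 macrophage-made genes and Cfd, and the remaining coagulation genes are Plau, Plaur, F8, Vwf, Thbd and F3. Among hepatocyte-made genes, 4 of 16 complement genes rose and 3 fell, with a median of -0.07, and 7 of 16 coagulation genes rose and 1 fell, with a median of 0.18. Of all 32 hepatocyte-made genes 11 rose, 4 fell and 17 did not pass, with a median of 0.09. With the pool's spread 7 of them were higher and 2 lower, and 3 of the 8 macrophage-made genes were lower. The 17 lay between -0.22 and 0.26. Of the 24 calls, 12 held under every alternative that gave a value: C1qa, C1qb, C6, C8b, Cfd, F8, F11, Fga, Fgb, Fgg, Proc and Plaur. That was 15 alternatives each, except 14 for Cfd, which had no value where both channels had to be above background. Processed signals also ended the calls of Cfi, Cfp, Mbl1 and F2 (adjusted p = 0.072, 0.123, 0.0572 and 0.0802), as did an offset of 0 (0.0589, 0.0661, 0.052 and 0.054). Median centring in place of loess ended those of Mbl1, C5ar1, F2, F7 and Plau (0.0731, 0.0802, 0.0534, 0.0951 and 0.0525).

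**Figure D3:**
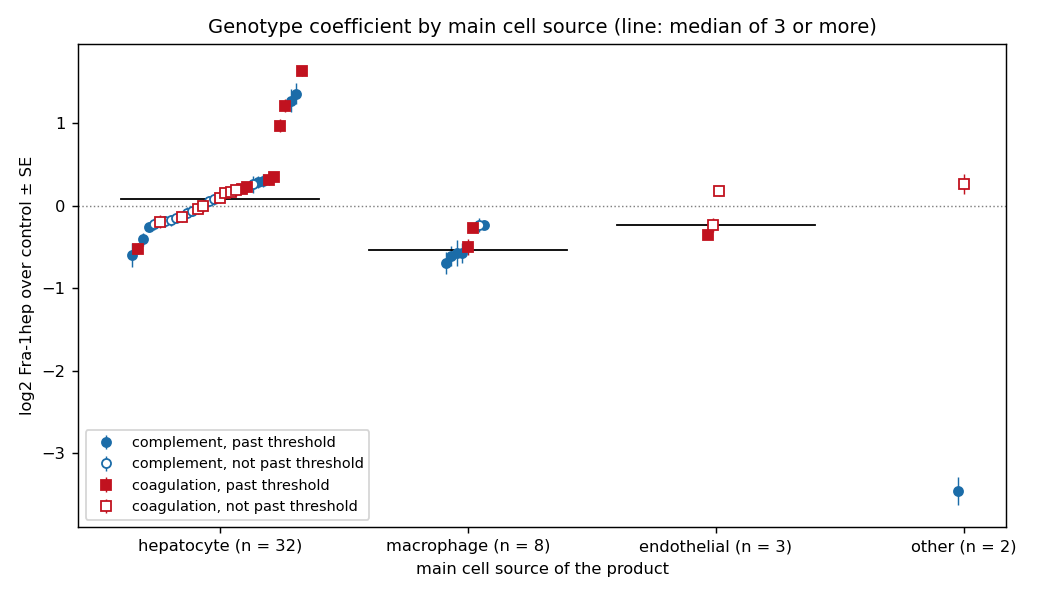
Genotype coefficient with its standard error (log2 Fra-1hep over control, vertical axis) of each gene, by the main cell source of its product (horizontal axis); circles are complement and squares coagulation genes, filled symbols passed the threshold, and lines are medians. The 32 hepatocyte-made genes run from -0.59 to 1.63, and the 8 macrophage-made genes from -0.70 to -0.23.

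Dye effects were large for some of these genes. The dye intercept passed the threshold for 7 of 45 genes (15.6%, against 4.16% of all features): Fgb (1.00), F10 (0.96), Kng1 (0.84), C3 (0.57), Mbl2 (0.51), C4b (0.30) and F13b (-0.26). With 1 swapped array, such an intercept cannot be told apart from a deviation of that array or of its pool. The first 6 of these lay among the 9 genes with a mean log2 intensity over 16. Of all 152 features that bright, 98 (64.5%) had a dye effect past the threshold, with a median intercept of 0.46, against 14.4% of the 991 features from 14 to 16. In 7 genes all 4 mice had the same sign and the swapped pool the opposite one: C3, C4b, C4bp, Masp2, F2, F10 and Kng1. Without the swapped array 8 genes changed sign: C1ra, C8g, Masp1, F9, Klkb1 and Pros1, which did not pass with or without it, and Mbl2 and F10. Mbl2 lost its call and F10, not called with all arrays, passed as higher. In the same fit 5 other genes lost their calls (C2, Cfi, F7, F13b and Plau) and 7 gained one (C3, C4b, C4bp, Masp2, Kng1, Plg and Thbd).

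**Figure D4:**
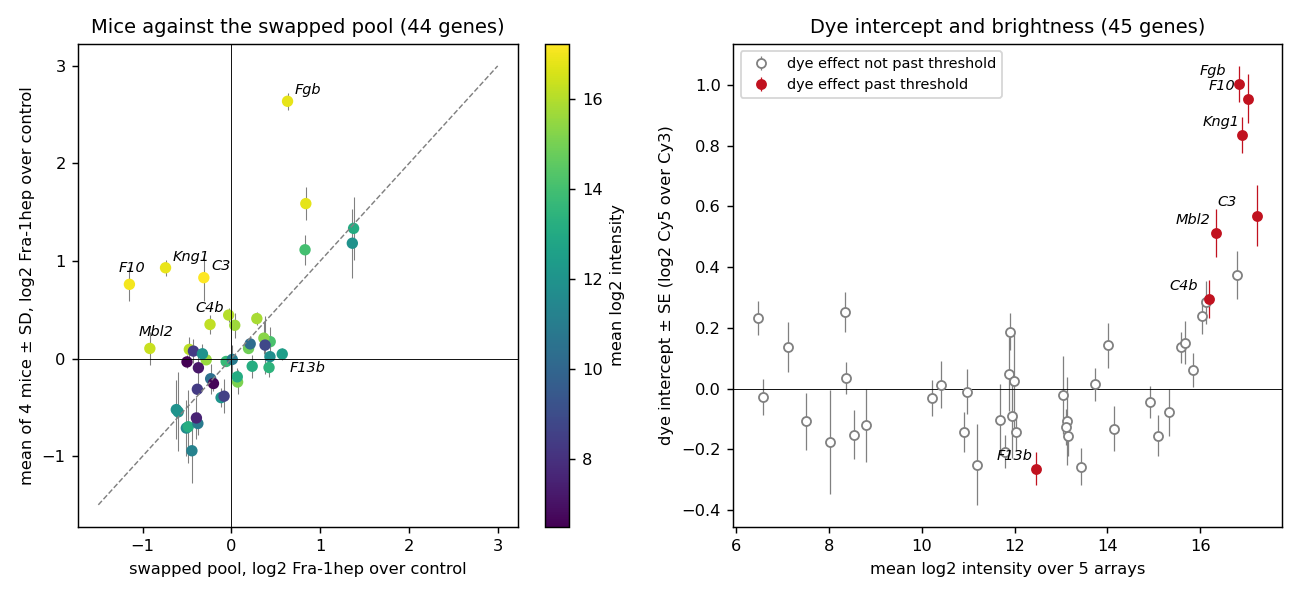
Left, mean of the 4 mice with its SD against the swapped pool (both log2 Fra-1hep over control) for all genes but Cfd, coloured by mean log2 intensity, with the line of equality dashed; right, dye intercept with its standard error (log2 Cy5 over Cy3) against mean log2 intensity for all 45 genes. The named genes have a dye effect past the threshold, and 6 of the 7 lie at an intensity over 16.

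Other genes of both cascades, from lists of 26 and 28 genes, were read in the same fit. Over all features, 11.2% were called higher and 15.4% lower. Of 22 other complement genes tested, 1 rose and 11 fell, with a median of -0.17. The fallen genes include both C1s genes, the partners of C1r (C1s2 -0.65 ± 0.06, C1s1 -0.54 ± 0.08), and the inhibitors Serping1, which blocks C1r and C1s (-0.49 ± 0.07), and Clu (-0.44 ± 0.06, with a dye intercept of 0.30). The C1s genes resemble each other, and a probe may read both. Of 23 other coagulation genes tested, 9 rose and 3 fell, with a median of 0.14. The share of falls lay close to that over all features. The thrombin receptor gene F2r rose (0.91 ± 0.06) and the protein C receptor gene Procr fell (-0.73 ± 0.06). Cpb2, whose product slows fibrinolysis, rose (0.50 ± 0.05), as did Ggcx, the vitamin K-dependent carboxylase (0.33 ± 0.05).

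Transcription factors and signalling genes known to act on these promoters were also read. Of 12 tested, 1 rose and 3 fell at the threshold, with a median of -0.20. Over all features, 11.2% were called higher and 15.4% lower, so counts this small are not a result about the list. Il6ra, the IL-6 receptor, rose (0.52 ± 0.11), while Stat3 (-0.37 ± 0.07), which IL-6 activates, and Cebpd (-0.84 ± 0.17) fell. Of 10 hepatocyte markers, 1 rose, Ahsg (0.71), 1 fell, Tat (-0.58), and 8 did not pass. Their median was -0.00, with medians of 0.51, 0.42, 0.21 and 0.33 in the mice, with the swapped pool at -0.27, and 5 of them had a dye effect past the threshold.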

How the data were processed

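Liver RNA was compared on 5 Agilent 2-colour arrays. Per the file headers, signals were extracted with Feature Extraction 10.7.3.1. The deposited files give median signals and local backgrounds per spot as intensity, processed signals as intensity, a log10 ratio of red over green, and flags that are scores of 0 or 1. The authors' deposited value table holds log2 ratios, not centred, of Fra-1hep over control on all arrays, and was used as an alternative. Background was corrected with normexp (offset 50) and each array was normalised by loess, giving no weight to controls and outliers, in limma 3.58.1 under R 4.3.3. The filter kept 28121 probes, those that 1 or both channels detected above background on 3 or more arrays, and a gene is its brightest kept probe. Genotype was coded 1, and -1 on the swapped array, beside a dye intercept, with eBayes and Benjamini-Hochberg adjustment over 21508 features. The number of arrays limits the precision: 3 residual degrees of freedom come from the 4 mice. Nothing in the sources used here ties the slides to a date; mouse 1 was alone on 1 of 2 slides, and the fit without it is the within-slide fit. The fit was tested on simulated data. Accessions were named through RefSeq; coordinates are those of the promoter table's build. Named with the value on every array were all macrophage-made, endothelial and other members, the 12 hepatocyte-made genes with the largest change past the threshold, and the 6 largest dye intercepts; from the other lists, up to 4 genes with the smallest p. Kupffer cell markers beyond that rule, and other genes whose call changed with a setting, were named after their values were seen. The genes and lists were chosen with earlier results of these data known.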

Additional observations from a re-analysis of the deposited data

Results flagged for a closer look

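In mouse 4, F3 (-0.30) and Fgb (2.51) stood apart from the other mice by Dixon's criterion for 4 samples, which divides the gap by the range. Chance meets it in about 1 of 20 groups, and 45 genes were looked at. For Fgb the gap was small in size, with the other mice between 2.66 and 2.69. The dye intercept, a difference between the 2 dye orientations under the same comparison, passed the threshold for Fgb (1.00), F10 (0.96), Kng1 (0.84), C3 (0.57), Mbl2 (0.51), C4b (0.30) and F13b (-0.26). A deviation of the swapped array or its pool cannot be told apart from a dye effect here.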

How the results depend on the processing

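Without the swapped array, Mbl2 was 0.10 and F10 0.76, both with the opposite sign, and the medians were -0.095 for complement and 0.076 for coagulation. Over all fits without 1 array, Mbl2 ran from -0.45 to 0.10 and F10 from -0.23 to 0.76. With the control pool's spread added, 7 genes were higher and 7 lower, of which complement had 2 and 4 and hepatocyte-made genes 7 and 2; 3 macrophage-made genes were lower and 2832 features passed in all. Processed signals and the deposited log2 ratios left 2 complement genes higher, and an offset of 0 left 2 hepatocyte-made genes lower. Median centring gave a hepatocyte-made median of 0.15 and 34 genes with a dye effect, against 4 with processed signals and 4 with an offset of 0. Leaving out 1 array at a time gave 8 to 12 genes higher and 10 to 15 lower, 3 to 4 and 6 to 10 for complement, 5 to 8 and 4 to 5 for coagulation, 8 to 12 and 3 to 5 for hepatocyte-made genes, and 5 to 8 macrophage-made genes lower. The medians then ran from -0.21 to -0.095 for complement, 0.076 to 0.17 for coagulation, 0.08 to 0.10 for hepatocyte-made and -0.57 to -0.49 for macrophage-made genes, with 4 to 7 dye effects and 4278 to 7716 features past the threshold. Requiring both channels above background left no value for Cfd, C5ar1 and Plau. The causes were not tested. Each array held Fra-1hep and control RNA together, and the fit used these ratios within arrays. The mice and the swapped pool could not be paired with each other, because they share fewer than 2 replicate numbers.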
